A study of Mus musculus with 4 samples.

Results

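Expression of 37 genes for enzymes that build, remodel and break down glycerolipids and phospholipids was compared between alveolar macrophages of KO and WT mice. The genes were listed by name and sorted into 9 classes by the step they catalyse. The choosing rule is the names alone, but the list was drawn up with earlier results of these data known. Of the 37, 36 had a probe set that carries their name alone, out of 18782 genes measured on the arrays. Agpat1 lies only on probe sets that also name a neighbouring gene, and was not analysed here. KO mice were adult CD11c-Cre/Pparg fl/fl animals, in which a Cre recombinase under the CD11c promoter is designed to delete the nuclear receptor gene Pparg. WT mice were adult Pparg fl/fl animals without Cre, so the floxed alleles are common to both groups, as is the C57BL/6 background. The CD11c promoter is also active in dendritic cells, so the deletion is not limited to macrophages. Each group had 2 arrays, and each array came from cells sorted from the lungs of 2 mice and combined, so the spread between arrays is a spread between pools. Per the labels, both groups were sorted as viable CD45+, CD11c-high, autofluorescent and Siglec-F+ cells, but KO cells as CD11b-high and WT cells as CD11b-low, and the KO cells are described as immature cells halted before they became mature alveolar macrophages.

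Glycerolipid synthesis starts with the acylation of glycerol-3-phosphate to lysophosphatidate and then to phosphatidate. Phosphatidate is either dephosphorylated by lipins to diacylglycerol, the precursor of triglyceride, phosphatidylcholine and phosphatidylethanolamine, or activated with CTP to CDP-diacylglycerol, the precursor of phosphatidylinositol, phosphatidylglycerol and cardiolipin. Finished phospholipids are remodelled by removal and replacement of an acyl chain. Alveolar macrophages take up and degrade pulmonary surfactant, which is rich in phosphatidylcholine, and PPARγ, the product of Pparg, is a lipid-sensing transcription factor that promotes fat storage in adipocytes.

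All values are log2 expression values made with RMA, and a difference of 1 is a 2-fold change. The arrays correlated across genes with r = 0.996 between the KO arrays, 0.995 between the WT arrays and 0.967 to 0.975 between genotypes. Pparg itself read 9.59 and 9.73 on the KO arrays and 9.69 and 9.75 on the WT arrays, and with no position of its probes to set against the deleted exons, this does not check the genotype. Itgam, which encodes CD11b, read 8.87 and 8.61 in KO and 3.10 and 2.87 in WT, as the gates were set. Of 13 measured markers of alveolar macrophages, 1 was higher and 6 were lower in KO. The lower ones included Krt79 (difference -6.19), Cidec (-5.67), Epcam (-4.37) and Siglecf (-3.27), while Chil3, Plet1 and Itgax read above 10 on all 4 arrays. Siglecf, which encodes the gate marker Siglec-F, read 6.005 and 6.48 in KO and 9.585 and 9.44 in WT, although both groups were sorted as Siglec-F+. Of 9 interstitial macrophage markers, 8 were higher and 0 lower in KO. Their values summed on the linear scale to 3727 and 3539 on the KO arrays and to 286 and 200 on the WT arrays, with 1 marker under the array median of 3.14 on both KO arrays and 5 on both WT arrays. Of 7 monocyte markers 4 were higher and 1 lower, with Ccr2 at 7.03 and 6.70 in KO and 4.49 and 5.58 in WT and Treml4 at 4.70 and 4.79 in KO and 7.65 and 6.62 in WT, and their linear sums were 2163 and 2087 in KO and 1941 and 2014 in WT. Of 6 type 1 epithelial markers, Hopx (2.66), Pdpn (2.81) and Cav1 (1.72) were higher by the log2 differences given and Ager (-1.32) was lower. Aqp5 (-0.20) and Rtkn2 (-0.13) did not pass. The sums were 1404 and 1250 in KO and 320 and 392 in WT. Pdpn (9.19 and 8.94) and Cav1 (9.33 and 9.24) had the highest KO values of the list and so weighed most in the KO sums. Of 5 neutrophil markers S100a8 was higher (difference 1.92) and Csf3r lower (-1.54). In 4 of the 5 both KO arrays lay above both WT arrays, as in 4753 of all 18782 genes. The linear sums were 155 and 151 in KO and 184 and 226 in WT. Csf3r, at 7.08 and 7.57 in WT, had the highest values of the list there. Of 7 dendritic cell markers Cd209a was higher (difference 2.04) and Batf3 lower (-0.92). Their sums were 137 and 229 in KO and 107 and 115 in WT. Clec9a read 5.79 and 6.99 in KO and 4.56 and 5.58 in WT, and did not pass. Its value on KO replicate 2 was the highest of the list. Of 6 endothelial markers 1 was higher, as was 1 of 6 markers of T and NK cells, and 0 were lower. Markers of club and ciliated cells, fibroblasts, eosinophils, B cells, and mast cells and basophils, 25 in all, gave 0 calls. In sorted cells of this kind, fewer cells of a type and less RNA per cell cannot be told apart. What part the marker shifts and the unequal gates have in the differences below was not tested.

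In KO macrophages 6 of the 36 enzyme genes were higher and 4 lower, with adjusted p under 0.05 in limma over all genes. The 6 higher genes were Lpcat1, Lpcat2, Cds1, Agpat2, Cds2 and Chpt1, and the 4 lower genes were Gpat3, Dgat2, Lpcat3 and Lpin1. The 10 called genes are 27.8% of the 36, against 14.3% of all genes tested, of which 7.41% were higher and 6.86% lower. The gap depended on the filter on signal. When genes with a mean under the median over all genes were left out, 10 of 30 enzyme genes (33.3%) and 30.8% of all remaining genes were called, so the share of enzyme genes called lies near that of other well-expressed genes. The median difference of the 36 genes was -0.016, against -0.015 over all genes, and the median size of a difference was 0.161 for the enzyme genes and 0.145 over all genes. Differences of at least 1 that passed the test were found in 4 enzyme genes (11.1%, against 5.22% of all genes), namely Lpcat1, Lpcat2, Cds1 and Gpat3. In 22 of the 36 (61.1%) the arrays of the groups did not overlap, against 55.3% of all genes. By class, 1 of 3 glycerol-3-phosphate acyltransferase genes, 1 of 3 lipin genes and 1 of 4 diacylglycerol and monoacylglycerol acyltransferase genes were lower. Of 4 lysophosphatidate acyltransferase genes 1 was higher, as were 2 of 4 genes of CDP-diacylglycerol and cardiolipin synthesis. Among 6 lysophospholipid acyltransferase genes 2 were higher and 1 lower. Of 7 genes of phosphatidylcholine and phosphatidylethanolamine synthesis 1 was higher. Phosphatidylserine genes and neutral lipases gave 0 calls. These counts per class are too small to set against the share over all genes.

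**Figure D1:**
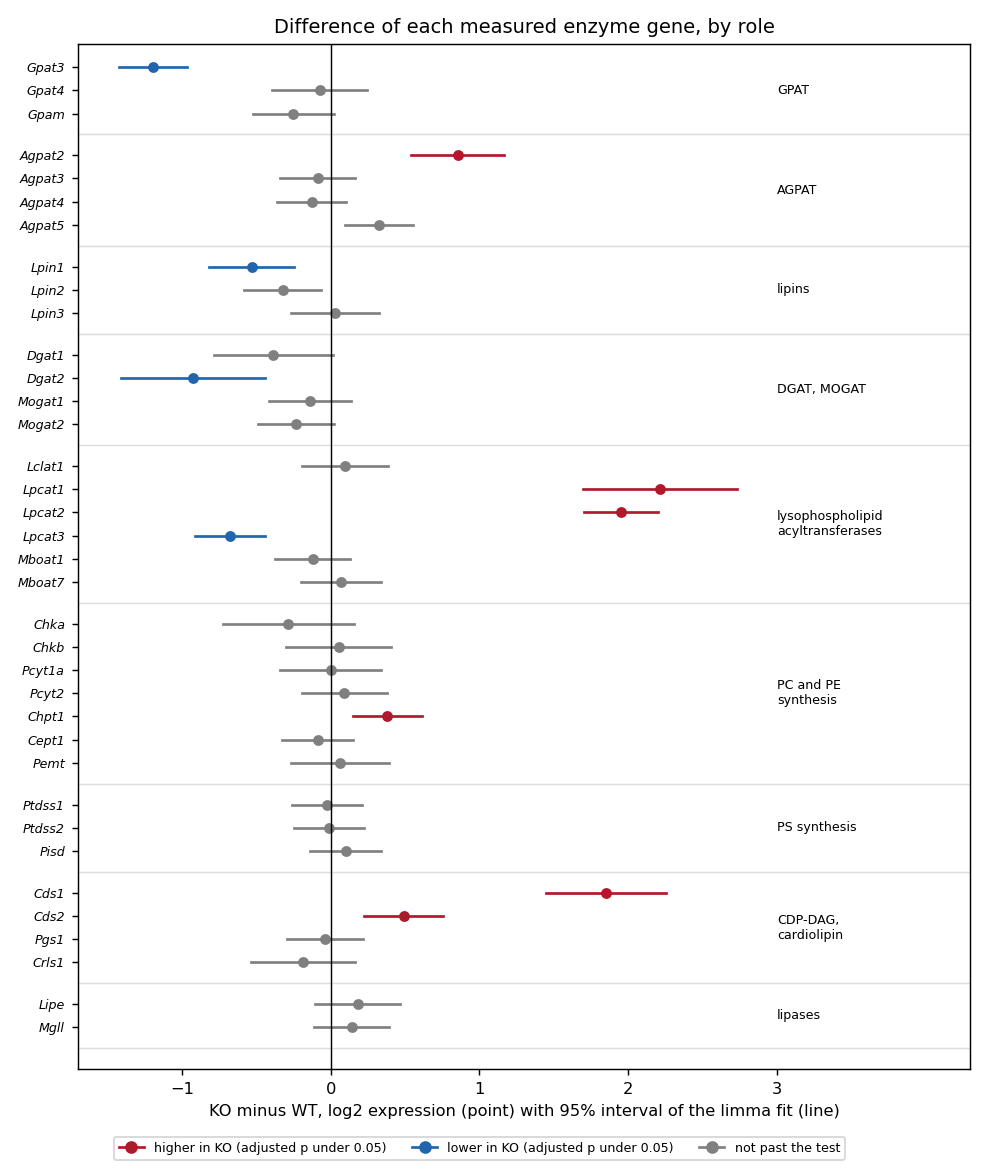
The difference KO minus WT in log2 expression (horizontal axis) of each of the 36 measured enzyme genes (rows, grouped by role), as a point with the 95% interval of the limma fit as a line. Red genes were higher and blue genes lower in KO with adjusted p under 0.05, and grey genes did not pass; Lpcat1 (2.21), Lpcat2 (1.95) and Cds1 (1.85) lie farthest to the right and Gpat3 (-1.19) farthest to the left, while the 3 phosphatidylserine genes lie close to 0.

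Gpat3 encodes a glycerol-3-phosphate acyltransferase of the endoplasmic reticulum, which catalyses the initial step of the pathway and is induced when adipocytes differentiate. It read 6.68 and 6.64 on the KO arrays and 7.83 and 7.88 on the WT arrays. Both KO arrays lay more than 1 unit below both WT arrays, and the arrays within a group lay close together. The difference was -1.19 ± 0.09 (SE; 95% interval -1.42 to -0.96; adjusted p = 7.40e-04), which is 0.437 of the WT level, and it passed in all 10 alternative analyses. The other genes of this step did not pass. Gpat4, the second acyltransferase of the endoplasmic reticulum, read 6.03 and 5.97 in KO and 5.91 and 6.23 in WT, with overlapping groups (difference -0.07, 95% interval -0.39 to 0.25). Gpam, which encodes the mitochondrial enzyme, read 4.64 and 4.43 in KO and 4.78 and 4.79 in WT, and its difference of -0.25 had an interval of -0.52 to 0.02. The interval of Gpat3 does not overlap those of Gpat4 and Gpam. The difference between the genes was not itself tested.

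The next step adds the other acyl chain to form phosphatidate. Agpat2, whose loss causes a generalised lipodystrophy in humans, was higher in KO. It read 6.62 and 6.88 on the KO arrays and 5.80 and 5.98 on the WT arrays, with no overlap, a difference of 0.86 ± 0.13 (SE; adjusted p = 0.00784) or 1.81-fold. Without KO replicate 2 the adjusted p was 0.0505, with a difference of 0.73. Fits that leave out an array hold a lone array in that group, which is assumed to vary like the others. Of the other measured genes of this family, Agpat5, which encodes a mitochondrial member, read 5.67 and 5.71 in KO and 5.34 and 5.40 in WT. The groups did not overlap, but the difference of 0.33 ± 0.10 had an adjusted p of 0.0780 (0.0408 when dim genes were left out). Agpat3 and Agpat4 differed by -0.09 and -0.13, with intervals that together ran from -0.36 to 0.16. Gpat3 and Agpat2, which act in succession, thus stood on opposite sides of 0.

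Lipins remove the phosphate of phosphatidate and so commit it to diacylglycerol. Lpin1, whose product also acts as a transcriptional coactivator, read 8.73 and 8.79 on the KO arrays and 9.17 and 9.41 on the WT arrays. Both KO values were lower than both WT values, and the WT arrays were farther apart than the KO arrays. The difference was -0.53 ± 0.12 (SE; adjusted p = 0.0319), which is 0.693 of the WT level. The call was lost with KO replicate 1 left out (adjusted p = 0.154), with KO replicate 2 left out (0.120) and with WT replicate 2 left out (0.113). Lpin2 read 5.98 and 6.14 in KO and 6.34 and 6.42 in WT, also without overlap, and did not pass (difference -0.32 ± 0.11, adjusted p = 0.109). Lpin3 read between 2.09 and 2.36 on the 4 arrays, under the array median on each, and its difference was 0.03.

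The last step to triglyceride is catalysed by 2 unrelated enzymes. Dgat2, which encodes the enzyme that favours newly made fatty acids, read 7.17 and 7.50 on the KO arrays and 7.996 and 8.52 on the WT arrays. The groups did not overlap, but the arrays within each lay apart, with an SD of 0.23 in KO and 0.37 in WT (n = 2 each). The difference was -0.93 ± 0.20 (SE; adjusted p = 0.0284), which is 0.526 of the WT level. It did not pass with KO replicate 1 left out (adjusted p = 0.159), with KO replicate 2 left out (0.0727) or with WT replicate 2 left out (0.0612), nor when every probe set was fitted (0.0502). Dgat1 read 7.83 and 7.94 in KO and 8.04 and 8.50 in WT, a difference of -0.39 ± 0.16 with an adjusted p of 0.203. Without WT replicate 1 this difference was -0.62 and passed (adjusted p = 0.0419), and without WT replicate 2 it was -0.15. On WT replicate 2 both Dgat1 and Dgat2 read higher than on WT replicate 1. The monoacylglycerol acyltransferase genes Mogat1 and Mogat2, known from liver and intestine, read between 1.83 and 2.50 on all arrays, under the array median. Mogat2 is the nearest protein-coding neighbour of Dgat2 on chromosome 7 in the GRCm38.p6 annotation, with 0 protein-coding genes between them. It differed by -0.23 ± 0.11 (adjusted p = 0.229), at a signal where a change is compressed. All 4 genes of this class had both KO arrays below both WT arrays, as did 5629 of all 18782 genes, and 1 of the 4 passed.

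The largest changes among the 36 genes lay in the acyltransferases that remodel phospholipids. Lpcat1 encodes the enzyme that makes disaturated phosphatidylcholine, the main surface-active lipid of surfactant, in type 2 cells of the alveolar epithelium. It read 6.61 and 6.62 on the KO arrays and 4.07 and 4.74 on the WT arrays. Both KO values stood well above the WT values, and the WT arrays lay apart while the KO arrays were nearly equal. The difference was 2.21 ± 0.21 (SE; adjusted p = 0.00145), or 4.64-fold, and ran from 1.88 without WT replicate 1 to 2.55 without WT replicate 2, the fits that held the lowest and the highest value. Lpcat2 encodes a related enzyme that in inflammatory cells also makes platelet-activating factor. It read 7.57 and 7.41 on the KO arrays and 5.52 and 5.56 on the WT arrays, a difference of 1.95 ± 0.10 (SE; adjusted p = 1.78e-04), or 3.87-fold. Neither gene lost its call in any of the 10 alternative analyses.

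Lpcat3 moved the other way. Its product, of a different protein family, places polyunsaturated chains such as arachidonate and linoleate into phosphatidylcholine, and the gene is a known target of the sterol receptor LXR. It read 8.62 and 8.61 on the KO arrays and 9.34 and 9.24 on the WT arrays. The KO values were nearly equal and clear of the WT values. The difference was -0.68 ± 0.10 (SE; adjusted p = 0.00663), which is 0.626 of the WT level, and the highest adjusted p with an array left out was 0.0487. The remaining members of the class did not pass. Mboat7, which places arachidonate into phosphatidylinositol, differed by 0.07 (95% interval -0.20 to 0.34), and Lclat1, which acts on lysocardiolipin, by 0.10 (-0.19 to 0.38), each with overlapping groups. Mboat1 read between 1.96 and 2.18 on all arrays, under the array median.

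Lpcat1 is also on the list of markers of type 2 cells, and the values of the whole list stand here beside it. Of the 9 others, 1 was higher and 0 lower in KO. Their values summed on the linear scale to 417 and 376 on the KO arrays and to 312 and 338 on the WT arrays. The higher marker was Etv5, at 3.62 and 3.67 in KO and 2.79 and 2.86 in WT (adjusted p = 0.00309). The markers with the most signal were Napsa, which encodes an aspartic protease, and Abca3, which encodes a lipid transporter. Napsa read 7.82 and 7.54 in KO and 7.15 and 7.42 in WT, and Abca3 read 7.10 and 7.12 in KO and 6.74 and 6.91 in WT. For both, the KO arrays lay above the WT arrays, without passing the test (adjusted p = 0.142 and 0.149). The surfactant protein gene Sftpc read 3.64 and 3.22 in KO and 4.27 and 2.99 in WT. Sftpb read 3.15 and 3.05 in KO and 3.54 and 3.43 in WT, and Sftpa1 read 2.86 and 3.16 in KO and 3.20 and 2.85 in WT. The values of these surfactant genes lay close to the array median of 3.14, apart from Sftpc on WT replicate 1. Slc34a2 read 2.45 and 2.07 in KO and 3.22 and 2.44 in WT, and Lamp3 and Nkx2-1 read between 1.41 and 2.32 on all arrays. What part these cells have in the difference of Lpcat1 was not tested.

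**Figure D2:**
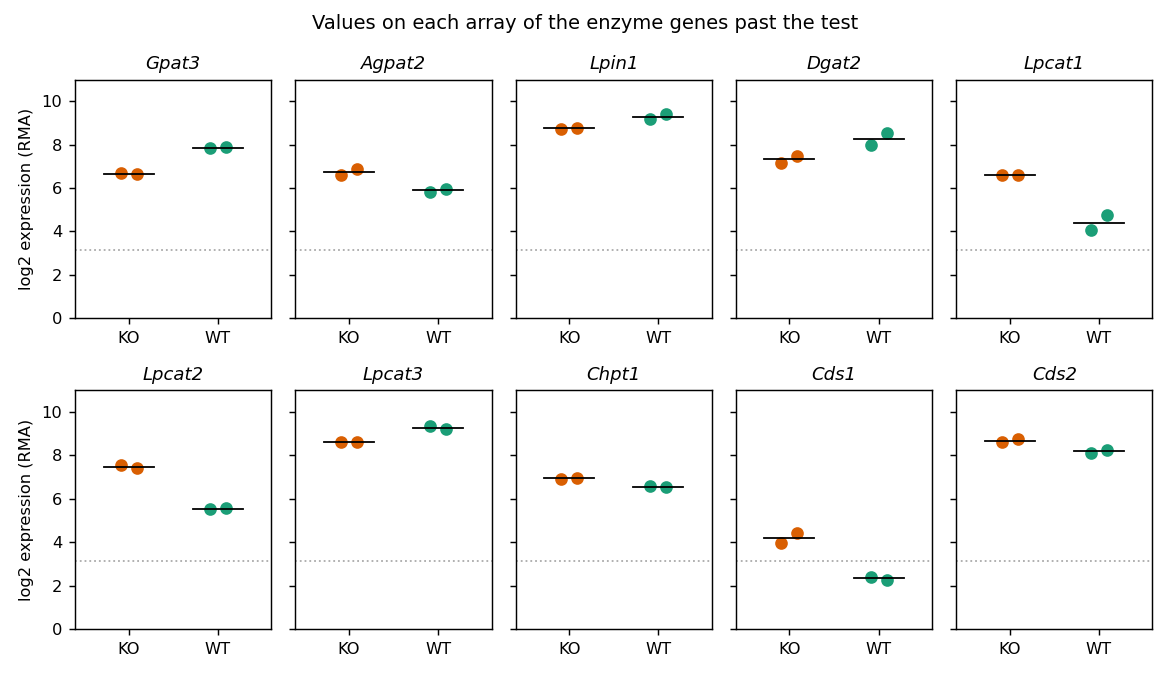
Log2 expression (vertical axis, from 0) on each array of the 10 enzyme genes past the test, with KO arrays (orange) left of WT arrays (green), a black bar at each group mean and a dotted line at the array median of 3.14. No gene has overlapping groups; Cds1 lies under the dotted line on both WT arrays (2.39 and 2.28) and above it on both KO arrays (3.95 and 4.42).

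Most genes of phosphatidylcholine and phosphatidylethanolamine synthesis, the Kennedy pathway, did not pass. The exception was Chpt1, which encodes the cholinephosphotransferase of the Golgi that makes phosphatidylcholine from diacylglycerol. It read 6.92 and 6.96 on the KO arrays and 6.59 and 6.53 on the WT arrays, without overlap, a difference of 0.38 ± 0.10 (SE; adjusted p = 0.0474) or 1.30-fold. The call was lost when any 1 array was left out: leaving out KO replicate 1 gave an adjusted p of 0.152, KO replicate 2 one of 0.181, WT replicate 1 one of 0.122 and WT replicate 2 one of 0.159. It was 0.0611 when every probe set was fitted. Cept1, whose product makes both phospholipids in the endoplasmic reticulum, differed by -0.09 (95% interval -0.33 to 0.15). Pcyt1a encodes the enzyme that sets the rate of phosphatidylcholine synthesis. It read 6.63 and 6.51 in KO and 6.74 and 6.39 in WT, and the interval of its difference was -0.34 to 0.34. Its counterpart for phosphatidylethanolamine, Pcyt2, differed by 0.09 (-0.19 to 0.38). The choline kinase gene Chka read 6.58 and 6.69 in KO and 7.18 and 6.65 in WT, and WT replicate 1 alone stood apart from the other arrays (difference -0.28, interval -0.72 to 0.15). Chkb, at 3.11 to 3.44, and Pemt, which encodes a methyltransferase best known from liver, at 3.35 to 3.67, read close to the array median on all arrays and differed by 0.06 each.

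The genes of phosphatidylserine synthesis showed the smallest differences of any class. Pisd, which encodes the mitochondrial enzyme that turns phosphatidylserine into phosphatidylethanolamine, had the smallest p of the class and did not pass (adjusted p = 0.600). It read 6.64 on both KO arrays and 6.49 and 6.59 on the WT arrays. Ptdss1 makes phosphatidylserine from phosphatidylcholine and read 7.04 and 7.09 in KO and 7.04 and 7.13 in WT. Ptdss2 makes it from phosphatidylethanolamine and read 5.78 and 5.70 in KO and 5.77 and 5.73 in WT. The 95% intervals of the 3 genes together ran from -0.26 to 0.34, so differences beyond that range are outside what these arrays give for this class.

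In the other branch from phosphatidate, both genes for CDP-diacylglycerol synthases rose. Cds1 read 3.95 and 4.42 on the KO arrays and 2.39 and 2.28 on the WT arrays. The WT values lay under the array median, where RMA values are compressed, and the KO values above it. The difference was 1.85 ± 0.17 (SE; adjusted p = 0.00115), or 3.61-fold on this scale, and passed in each of the 9 alternatives that fitted it; the filter on dim genes removed it. Cds2 read 8.63 and 8.75 in KO and 8.12 and 8.28 in WT. The groups did not overlap, and the difference was 0.49 ± 0.11 (SE; adjusted p = 0.0313) or 1.41-fold. That call was lost with KO replicate 1 left out (adjusted p = 0.0926), with KO replicate 2 left out (0.158) and with WT replicate 1 left out (0.137). The genes of the mitochondrial enzymes that use CDP-diacylglycerol did not pass. Pgs1, for phosphatidylglycerol phosphate, differed by -0.04 (95% interval -0.29 to 0.22), and Crls1, for cardiolipin, by -0.18 (-0.53 to 0.17), each with overlapping groups. In the GRCm38.p6 annotation Cds1 and Gpat3 lie on chromosome 5 with 1 protein-coding gene between them, and they changed in opposite directions.

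Of the neutral lipases, Lipe encodes hormone-sensitive lipase, which acts mainly on diacylglycerol, and Mgll encodes monoglyceride lipase. Mgll read 7.87 and 7.78 in KO and 7.74 and 7.62 in WT, a difference of 0.14 ± 0.10 (adjusted p = 0.468). Lipe, the gene of the class with the smallest p, read 5.32 and 5.06 in KO and 5.02 and 5.00 in WT, a difference of 0.18 ± 0.12 (adjusted p = 0.413). Lipe also has a second probe set, on which the groups overlapped, at 4.25 and 4.61 in KO and 4.24 and 4.40 in WT. Neither lipase passed. For each, both KO arrays lay above both WT arrays on the probe set used, as in 4753 of all 18782 genes.

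**Figure D3:**
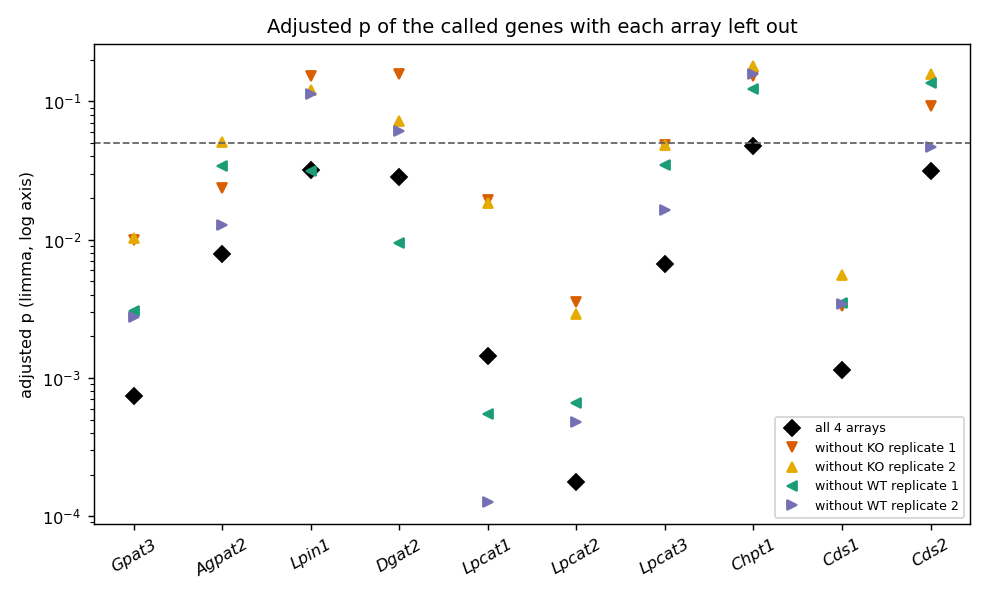
Adjusted p of the 10 called enzyme genes (vertical log axis) with all 4 arrays (black diamonds) and with each array left out in turn (coloured triangles), with a dashed line at 0.05. Gpat3, Lpcat1, Lpcat2, Lpcat3 and Cds1 stay under the line in every fit shown, and Chpt1 is under it only with all 4 arrays.

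Of the 10 calls, 5 held with each single array left out, namely those of Gpat3, Lpcat1, Lpcat2, Lpcat3 and Cds1. Without KO replicate 2 the count of higher genes was 3 in place of 6. The count of lower genes was 2 in place of 4 when either KO array or WT replicate 2 was left out.

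To show the letters around the start sites of the genes that moved most, the promoter windows of the 4 with differences of at least 1 are given, with that of Lpin1, the sole called gene with an AGGTCA element in its window. The windows hold 250 bases before and 50 bases after a start site in RefSeq (GRCm38.p6), and are printed 5′ to 3′ on the strand of the gene. Capitals mark GC boxes (GGGCGG on either strand) and AGGTCA, the element bound by nuclear receptors. The windows are those of Gpat3 at chr5:100845979-100846278 on the plus strand, Lpcat1 at chr13:73466981-73467280 on the plus strand, Lpcat2 at chr8:92855083-92855382 on the plus strand, Cds1 at chr5:101764880-101765179 on the plus strand and Lpin1 at chr12:16610917-16611216 on the minus strand.
Gpat3: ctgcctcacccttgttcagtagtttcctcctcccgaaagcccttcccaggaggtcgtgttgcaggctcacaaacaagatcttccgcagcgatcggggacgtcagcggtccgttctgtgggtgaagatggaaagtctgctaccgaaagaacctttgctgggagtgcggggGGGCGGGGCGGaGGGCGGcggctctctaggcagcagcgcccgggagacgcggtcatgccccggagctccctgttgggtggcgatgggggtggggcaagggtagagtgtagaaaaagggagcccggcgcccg
Lpcat1: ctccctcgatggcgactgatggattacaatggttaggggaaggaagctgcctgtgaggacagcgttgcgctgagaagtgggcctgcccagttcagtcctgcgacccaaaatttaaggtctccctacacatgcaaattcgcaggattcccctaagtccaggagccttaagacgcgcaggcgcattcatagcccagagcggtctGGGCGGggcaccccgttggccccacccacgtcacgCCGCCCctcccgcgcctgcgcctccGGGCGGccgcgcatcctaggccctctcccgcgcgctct
Lpcat2: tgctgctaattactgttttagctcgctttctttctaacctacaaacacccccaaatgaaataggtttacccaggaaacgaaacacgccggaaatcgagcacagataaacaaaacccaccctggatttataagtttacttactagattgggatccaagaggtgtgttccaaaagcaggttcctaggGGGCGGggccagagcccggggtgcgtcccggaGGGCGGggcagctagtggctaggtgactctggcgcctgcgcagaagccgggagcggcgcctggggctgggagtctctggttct
Cds1: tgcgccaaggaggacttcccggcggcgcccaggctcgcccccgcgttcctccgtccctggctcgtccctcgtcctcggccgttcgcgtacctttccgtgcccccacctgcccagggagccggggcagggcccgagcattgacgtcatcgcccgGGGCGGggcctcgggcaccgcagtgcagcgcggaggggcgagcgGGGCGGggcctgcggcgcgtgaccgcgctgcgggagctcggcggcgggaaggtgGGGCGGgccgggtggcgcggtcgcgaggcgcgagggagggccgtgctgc
Lpin1: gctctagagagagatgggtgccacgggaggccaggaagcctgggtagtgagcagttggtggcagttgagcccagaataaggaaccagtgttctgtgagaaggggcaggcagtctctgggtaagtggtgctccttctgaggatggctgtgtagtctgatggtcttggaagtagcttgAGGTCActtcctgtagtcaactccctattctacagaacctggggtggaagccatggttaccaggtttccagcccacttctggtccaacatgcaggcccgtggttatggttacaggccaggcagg

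The lower gene Gpat3 and the higher genes Lpcat1 and Cds1 each had 3 GC boxes, and Lpcat2 had 2. The Lpin1 window had no GC box, 2 CpG dinucleotides against 15 to 46 in the others, and its AGGTCA began 74 bases before the start site. PPARγ with its partner RXR binds AGGTCA repeated with 1 base between the copies. That repeat, AGGTCANAGGTCA, searched on both strands, was in 13 of 32851 windows of the genome (0.0396%) and in 0 of the 45 windows of the 30 listed enzyme genes that had one. The repeat with 4 bases between, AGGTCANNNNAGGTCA, which LXR binds, was in 0.0152% of all windows and also in 0 of the 45. Both repeats are so rare over all windows that most sets of 45 windows would hold 0, so these counts carry no information on binding. The single AGGTCA, contained in both repeats, was in 16.3% of all windows and in 1 of the 10 windows of the called genes, of which 9 had an entry. GC boxes were in 35.7% of all windows, in 29 of the 45 windows of the enzyme genes and in 8 of these 10. The 10 windows had a median of 64.5% GC, against 52.7% over all windows. What part this composition has in the count of GC boxes was not tested. These matches describe letters in windows of 300 bases only, and RefSeq start sites need not be those used in these cells.

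The surrounding pathway was read from 4 lists of other genes, with 62 of 66 measured. Of these, 8 were higher and 11 lower in KO (30.6%, against 14.3% of all genes). With dim genes left out, 9 were higher and 12 lower of the 54 that remained (38.9%, against 30.8% of all remaining genes). Among genes of substrate supply and other synthesis steps, 2 of 18 were higher and 2 lower (22.2%). The choline transporter gene Slc44a1 read 8.004 and 7.79 in KO and 5.16 and 5.14 in WT, a difference of 2.75 ± 0.11 (SE; adjusted p = 7.40e-05), and Lpgat1, which encodes another acyltransferase of lysophospholipids, was higher by 1.09 ± 0.10. Lpcat4, for a further lysophospholipid acyltransferase, was lower (difference -1.06 ± 0.14), as was the ether lipid synthesis gene Agps (-0.49 ± 0.11). Gpd1 and Gpd1l encode enzymes that make glycerol-3-phosphate. Gpd1l read 5.61 and 5.91 in KO and 5.94 and 5.95 in WT, and did not pass (difference -0.19, adjusted p = 0.428). Gpd1 was chosen after its values were seen. It read 3.20 and 2.48 in KO and 6.11 and 4.12 in WT, with WT arrays far apart (difference -2.28 ± 0.61, adjusted p = 0.0594). The difference was -1.29 without WT replicate 1 (adjusted p = 0.0443) and -3.27 without WT replicate 2 (0.00107), and it passed in 4 of the 10 alternatives, with adjusted p from 0.00107 to 0.261 over all 10.

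Among genes of phosphatidate and diacylglycerol turnover, 3 of 14 were higher and 0 lower. The share called was 21.4%, against 14.3% of all genes and 30.8% of those left by the filter on dim genes. Plpp3, which encodes a phosphatase of phosphatidate and lysophosphatidate, read 7.54 and 7.63 in KO and 4.22 and 4.16 in WT. This difference of 3.40 ± 0.10 (SE; adjusted p = 2.01e-05), or 10.5-fold, was the largest rise in the 4 lists and the 36 enzyme genes. Plpp2, of the same family, was higher by 1.83 ± 0.11, at 7.76 and 7.69 in KO and 5.80 and 6.00 in WT. The diacylglycerol kinase gene Dgkh was higher by 0.97 ± 0.20, with an adjusted p of 0.0888 without WT replicate 1 and 0.0592 without WT replicate 2.

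Among genes of neutral lipid breakdown and its regulators, 0 of 14 were higher and 4 lower. The share called was 28.6%, against 14.3% of all genes and 30.8% of those left by the filter on dim genes. The lower ones included Pnpla2 (-0.48 ± 0.11), the main triglyceride lipase gene, and the genes of its activator, Abhd5 (-0.84 ± 0.14), and its inhibitor, G0s2 (-0.98 ± 0.11). Also lower was the lysophosphatidylserine lipase gene Abhd12 (-1.01 ± 0.13). G0s2 read 3.79 and 3.99 in KO and 4.93 and 4.82 in WT. Abhd5 did not pass with KO replicate 1 left out (adjusted p = 0.0541) or with KO replicate 2 left out (0.0796). Among genes of phospholipid breakdown, 3 of 16 were higher and 5 lower. The lysophospholipase D gene Gdpd1 (2.34 ± 0.25), the phospholipase gene Plaat3 (1.29 ± 0.13) and Abhd4, for a lipase of N-acyl phospholipids (0.43 ± 0.09), were higher. Pnpla8, which encodes a calcium-independent phospholipase A2, read 6.40 and 6.26 in KO and 8.26 and 8.18 in WT (-1.89 ± 0.10, adjusted p = 2.04e-04). Pla2g6, for a related phospholipase, was lower (difference -0.92 ± 0.14), as were the thioesterase gene Lypla2 (-0.67 ± 0.12) and Pnpla6, for the esterase known as neuropathy target esterase (-0.44 ± 0.10). The fifth was Pla2g15 (-0.39 ± 0.10), the lysosomal phospholipase A2 gene of alveolar macrophages, named after its values were seen. Lypla2 did not pass with KO replicate 1 left out (adjusted p = 0.0520), with KO replicate 2 left out (0.0962) or with WT replicate 1 left out (0.0675), nor did Pla2g6 with KO replicate 1 left out (0.0649). Agps, Pnpla2, Abhd4, Pnpla6 and Pla2g15 lost their call with each array left out in turn (adjusted p from 0.0542 to 0.204). Over the 4 lists, 4 genes in place of 11 were lower with KO replicate 1 left out, 5 with KO replicate 2 left out and 7 with WT replicate 1 left out.

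**Figure D4:**
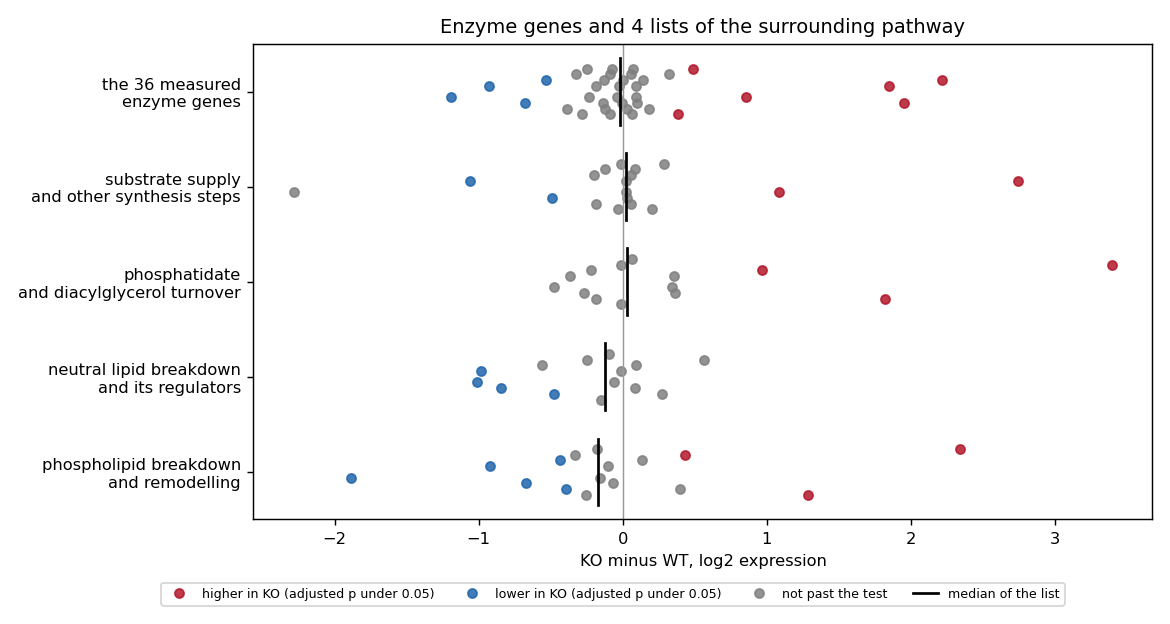
The difference KO minus WT in log2 expression (horizontal axis) of each gene (points) in the 36 measured enzyme genes and in 4 lists of other genes of the pathway (rows), with a black bar at each median and colours for the direction of genes past the test. The medians lie between -0.17 and 0.03, while single genes reach from -2.28 (Gpd1, not past the test) to 3.40 (Plpp3).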

How the data were processed

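The deposited table holds log2 expression values per probe set. The submitters' processing notes name RMA and R 2.15.2 as the authors' tools. RMA corrects background, equalises the arrays and summarises probes. The build and the settings of RMA: not given in the sources used here. The 4 arrays share 1 distribution (median 3.14, range 0.96 to 12.11), so a shift common to most transcripts would not be seen, and low values are compressed.

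Probe sets were named from the platform annotation. Of 28371, 21158 had 1 gene, 1881 several and 5332 none listed. Per gene the probe set with the highest mean was used. KO and WT were compared over 18782 genes with limma 3.58.1 in R 4.3.3, two-sided, with group as the only term (2 residual and 4.16 prior degrees of freedom) and Benjamini-Hochberg adjustment over all genes. A gene was called at adjusted p under 0.05. Intervals are 95%. The fit was checked on simulated data. Precision is limited by the number of arrays.

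The members, the 4 pathway lists and the marker lists were chosen with earlier results of these data known. Array values are given for each member past the test and for the member with the smallest p in classes with none, and for other members where a family is compared. Up to 4 genes per pathway list and direction, by smallest p, are named. The alternatives were renewed quantile normalization, leaving out dim genes, an intensity trend, the replicate number as a block, each array left out, the mean of all probe sets of a gene, and fitting every probe set. Promoter windows came from RefSeq (GRCm38.p6), and 30 of 37 members matched. Of the pathway lists, Gk, Etnk2, Plpp6 and Dgkg were not analysed here.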

Additional observations from a re-analysis of the deposited data

How the results depend on the processing

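All 10 alternatives were run, and 0 of the called enzyme genes changed direction in any of them. With 1 array left out, 3 to 5 enzyme genes were higher and 2 to 5 lower, and 6 to 7 genes of the pathway lists were higher and 4 to 8 lower. Renewed quantile normalization, the filter on dim genes, the intensity trend and the mean of all probe sets each gave 6 higher and 4 lower enzyme genes. Under the filter on dim genes Agpat5 was called and Cds1 was not fitted. Fitting every probe set gave 5 higher and 3 lower. The labels number the replicates 1 and 2 in both groups without saying what a number shares. The deviations of same-numbered arrays from their group means correlated across genes with r = -0.017. That value shows no deviation common to most genes, but it cannot tell whether same-numbered arrays were handled together. With the replicate number as a block, 5 enzyme genes were higher and 4 lower, and 7 and 9 genes of the pathway lists. Chpt1 then had an adjusted p of 0.0817. Mogat1, Mogat2, Lpin3 and Mboat1 read under the array median on all 4 arrays, where a fall would be compressed.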
